A study of Mus musculus with 53 samples.

Results

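Tumours with whole genome doubling (WGD+) were compared with tumours without it (WGD-) at day 14, in 6 of the 53 libraries of a bulk RNA sequencing study in mice. They were chosen by their titles, 3 WGD+ and 3 WGD- tumours of A/J hosts collected at day 14. Both groups grew from TA3 Hauschka, a mouse mammary tumour line that had been engineered into the WGD+ and WGD- forms. Cells were placed in Matrigel in the inguinal mammary fat pad of female A/J mice 6 weeks of age, which have an intact immune system. The labels name no treatment of these tumours other than the day of collection. The same experiment held 3 WGD+ and 3 WGD- tumours collected at day 8, and 2 other experiments held the same 2 forms in A/J mice under vehicle or an isotype control antibody for 14 days. The labels do not say whether a form is 1 clone or whether replicates came from separate animals. The spread behind each p-value is that among libraries of a group, and it may be technical in part.

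Cells that double their genome carry additional chromosome sets and centrosomes. Tumours are also shaped by T and NK cells, which kill through granzymes and perforin and release interferon-gamma. Interferon-gamma acts through a receptor with JAK kinases, and its target genes encode chemokines that attract T cells, guanylate-binding proteins, parts of the antigen presentation machinery and the checkpoint ligand PD-L1.

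Levels are given as log2(CPM + 1), where CPM is the read count per M assigned reads of the library, with TMM scaling. The WGD+ libraries held 10.3, 10.5 and 12 M assigned reads and the WGD- libraries 12.2, 7.62 and 8.97 M. Library pairs correlated across genes at 0.968 to 0.991 within WGD+, 0.949 to 0.978 within WGD-, and 0.914 to 0.973 between the forms. The labels were set against a score of the form, the mean level of 43 genes that were at least 2-fold higher in WGD+ than in WGD- tumours of immunodeficient NSG hosts under vehicle, minus the mean of 123 genes that were at least 2-fold lower. At day 14 it was 1.10, 0.765 and 0.658 in WGD+ and -0.757, -0.797 and -0.567 in WGD- libraries, so all 6 lay on the side of their label. At day 8 the library labelled WGD- replicate 3 scored 0.635, on the side of WGD+, and the library labelled WGD+ replicate 3 scored -0.281, on the side of WGD-. WGD- replicate 1 and WGD+ replicate 3 of day 8 also stood apart from the other libraries of the experiment. These day 8 libraries enter the day 14 test through the spread shared by the 4 groups and through the filter on low values, which left 13145 genes without the 2 that stand apart and 13081 without all 3. The counts of calls are given with and without them. Among the vehicle and isotype libraries used further on, WGD+ replicate 2 under isotype scored -0.0891, on the side of WGD-. The score follows the titles of the NSG vehicle libraries, and the genotype field of the 3 NSG WGD+ vehicle libraries reads WGD-.

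At day 14, 60 of 13478 genes tested passed a limma adjusted p of 0.05 (0.445%), of which 6 were higher in WGD+ tumours (0.0445%) and 54 lower (0.401%). The groups did not overlap for any of the 60, a property shared by 27.2% of all genes tested. At an unadjusted p under 0.05 there were 2232 of the 13478 genes, in either direction. The list counts at that p given below have this background. Of the called genes, 14 belonged to the gene lists used here and 46 to none of them. The lower genes were led by interferon-gamma targets, guanylate-binding proteins and T and NK cell genes, and the median difference over all genes tested was -0.02. In bulk tumours, fewer cells of a type and less RNA per cell cannot be told apart.

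The number of calls rested on single libraries. There were 0 calls without WGD- replicate 1 (1614 genes at an unadjusted p under 0.05), 1 without WGD- replicate 2 (Dynap) and 325 without WGD- replicate 3. There were 19 calls without WGD+ replicate 1, 0 without WGD+ replicate 2 (1717 at an unadjusted p under 0.05) and 2 without WGD+ replicate 3 (Gbp9 and Xdh). Leaving out the 3 day 8 libraries in doubt gave 404 calls, 134 higher and 270 lower, which held all 60. Single day 8 libraries moved the count too, to 222 without WGD- replicate 1 and 10 without WGD+ replicate 3. A fit of the 6 day 14 libraries alone gave 181 calls, 50 higher and 131 lower, with 42 of the 60 among them. In that fit Cd3g (adjusted p = 0.0614), Cd8a (0.0649), Nkg7 (0.0694), Pdcd1 (0.0726), Psmb8 (0.0649), Gbp3 (0.0596), Gbp4 (0.0731), Ifi47 (0.0721), Ubd (0.0565), Il7r (0.0502) and Zap70 (0.0579) missed the threshold. A count model on the recovered reads, voom, called 2 genes, Gbp9 among them, with 2159 genes at an unadjusted p under 0.05. In each of these fits every one of the 60 genes that was tested kept its sign. That is no test of direction, because groups that do not overlap keep their order whichever library is left out. Leaving out day 8 libraries does not change the estimate at day 14.

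**Figure D1:**
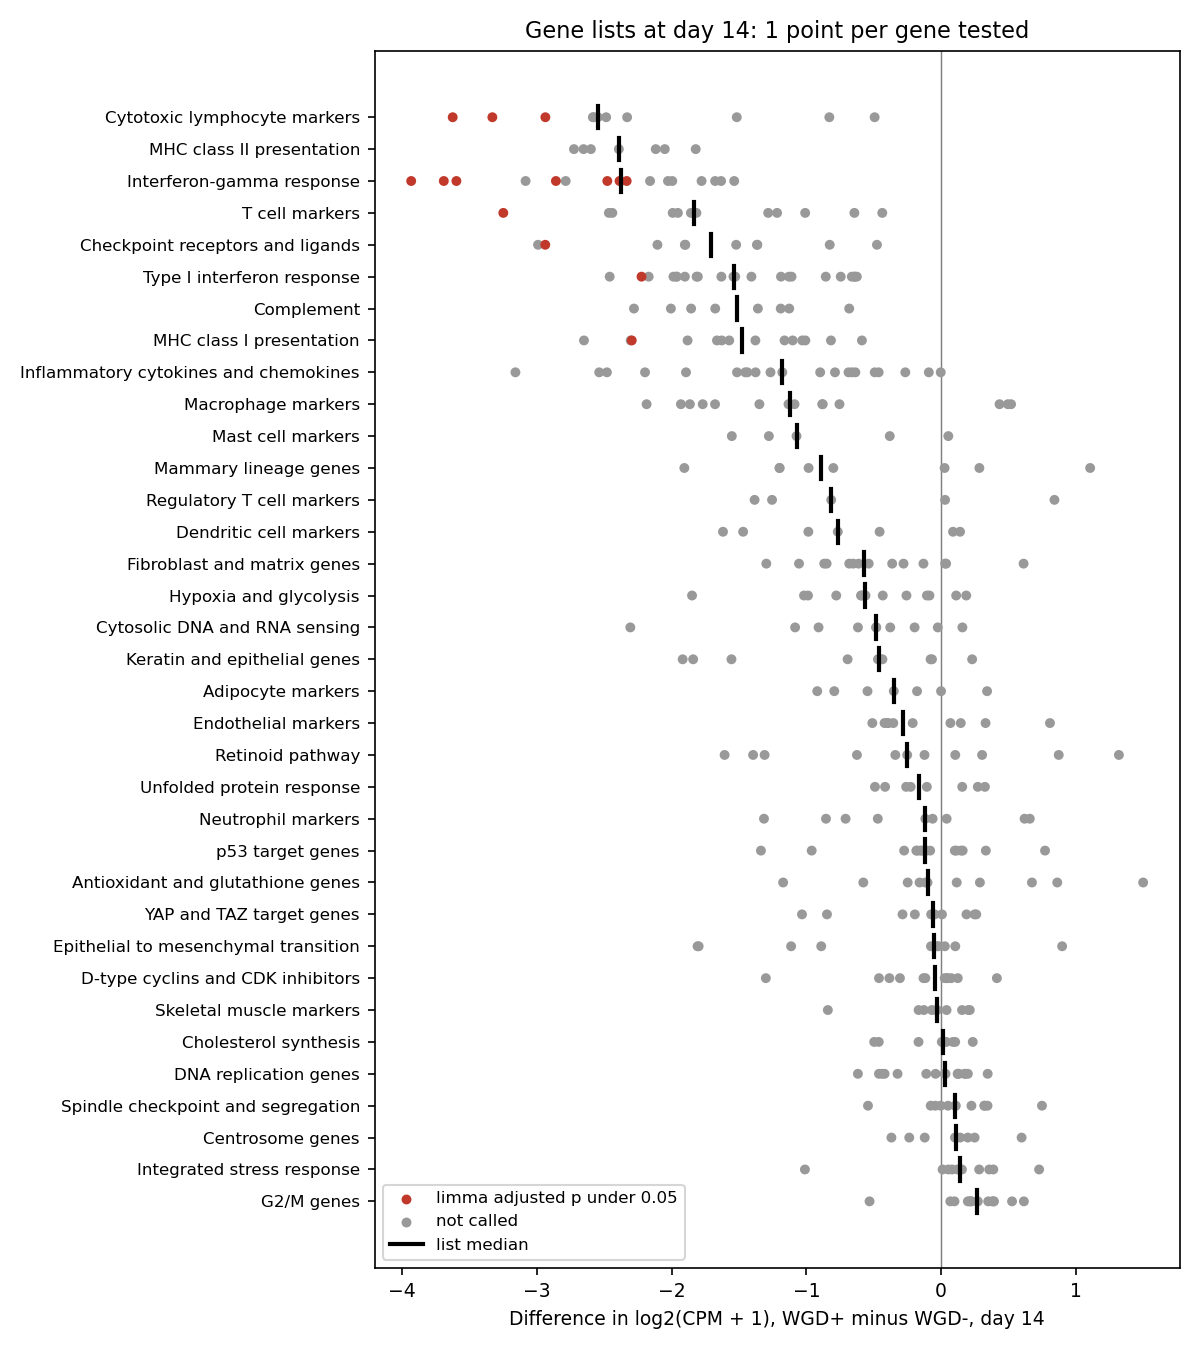
Difference in log2(CPM + 1) between WGD+ and WGD- tumours at day 14 (x axis) for each gene tested of the lists with at least 5 such genes (rows), with the list median as a bar and called genes in red. All 17 interferon-gamma genes, all 11 cytotoxic lymphocyte genes and all 12 T cell genes lie left of 0, while 14 of 15 G2/M genes lie right of it.

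Genes of the cytotoxic and T cell lists had lower levels in WGD+ tumours. Of the 11 cytotoxic lymphocyte markers tested, all 11 had a negative difference (median -2.55). In 10 the groups did not overlap, against 13.8% of all genes in that direction. Limma called 3, against 0.401% of all genes. There was 1 called in the fit of the 6 libraries and 4 without the 3 day 8 libraries in doubt. Gzmb, the granzyme B protease of killer cells (chromosome 14, 56258838 to 56262260, minus strand, in mm10), was at 1.83, 1.42 and 0.34 in WGD+ and 5.55, 5.06 and 3.86 in WGD- tumours. Every WGD+ library lay below every WGD- library, and the difference was -3.63 (SE 0.50, limma adjusted p = 0.0252). The counts behind it were 3 to 25 reads in WGD+ and 124 to 553 in WGD- libraries.

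Cd8a, the CD8 co-receptor chain of cytotoxic T cells, was at 1.40, 1.57 and 0.34 in WGD+ and 5.53, 4.90 and 2.87 in WGD- tumours, a difference of -3.33 (SE 0.58, limma adjusted p = 0.0413). The groups again did not overlap, with WGD+ replicate 3 the lowest of the 6 libraries and WGD- replicate 3 the lowest of its group. Nkg7, a granule membrane protein of T and NK cells, averaged 1.08 ± 0.69 in WGD+ tumours against 4.01 ± 1.29 in WGD- tumours (mean ± SD of 3 libraries), a difference of -2.94 (limma adjusted p = 0.046).

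Of 12 T cell markers tested, all had a negative difference (median -1.84). In 9 the groups did not overlap, against 13.8% of all genes in that direction. Limma called 1, against 0.401% of all genes. Cd3g, a chain of the T cell receptor complex, was at 0.94, 0.99 and 0.23 in WGD+ and 5.12, 4.43 and 2.36 in WGD- tumours (-3.25, SE 0.56, limma adjusted p = 0.0413), and was the only member called, with 0 called in the fit of the 6 libraries and 1 without the 3 day 8 libraries in doubt. It was represented by 2 to 10 reads in WGD+ libraries and 38 to 408 in WGD- libraries. The remaining T cell genes had the same direction with wider spread, for example Cd3e at 1.02, 0.99 and 0.12 in WGD+ and 4.27, 3.78 and 1.40 in WGD- tumours (-2.44, limma adjusted p = 0.0906). Il2rb, the receptor chain through which T and NK cells sense interleukin 2 and interleukin 15, fell by 2.96 on this scale (limma adjusted p = 0.035), and Il7r and Zap70, a cytokine receptor and a kinase of T cells, fell by 2.70 and 2.58. Cd3e, Il2rb, Il7r and Zap70 were named after their values were seen.

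Summed over the 12 of 14 T cell markers that the table holds, levels were 19.8 to 33.9 CPM in WGD+ and 42.6 to 169 CPM in WGD- tumours. Lck had the highest level of the list in each WGD+ library and weighs most in their sums. It was at 4.35, 4.34 and 3.70 in WGD+ and 5.12, 4.96 and 4.24 in WGD- tumours, overlapping groups (-0.64, limma adjusted p = 0.398). The cytotoxic list summed to 4.31 to 18.9 CPM in WGD+ and 50.0 to 284 CPM in WGD- tumours, and none of the 12 T cell and 15 cytotoxic markers held was at 0 in all 6 libraries. Regulatory T cell markers shared the direction only in part. Of 5 tested, 3 had a negative and 2 a positive difference (median -0.82). Limma called 0, with 2 at an unadjusted p under 0.05 and 0 called by voom. Without the 3 day 8 libraries in doubt 1 was called lower. Ikzf2 and Il2ra had differences of -1.38 and -1.25 and groups that did not overlap (limma adjusted p = 0.165 and 0.172). Tnfrsf4 had a difference of -0.82 (limma adjusted p = 0.305). Foxp3, their defining transcription factor, was at 4.97, 4.64 and 4.03 in WGD+ and 4.65, 4.42 and 4.49 in WGD- tumours, overlapping groups. Tnfrsf18, a receptor of these cells, was at 3.54, 3.49 and 4.09 in WGD+ and 3.44, 2.62 and 2.53 in WGD- tumours (0.84, limma adjusted p = 0.387). Foxp3 stood above Cd3e (1.02, 0.99 and 0.12) in the WGD+ libraries, and which cells expressed it was not tested. Lck, Foxp3, Tnfrsf18 and Tnfrsf4 were named after their values were seen. None of 8 B and plasma cell markers was high enough to be tested. The marker sums of B cells, macrophages, neutrophils, dendritic cells, fibroblasts, endothelium, fat, muscle and keratins overlapped between the groups. The part that lymphocyte content has in the differences of interferon-responsive genes below was not tested. Among checkpoint genes, all 10 tested had a negative difference (median -1.71) and 1 was called, against 0.401% of all genes in that direction. There were 0 called in the fit of the 6 libraries and 2 without the day 8 libraries in doubt. Pdcd1, which encodes the T cell inhibitory receptor PD-1, was at 1.45, 0.76 and 0.53 in WGD+ and 5.24, 3.89 and 2.42 in WGD- tumours (-2.94, limma adjusted p = 0.0476).

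The ligand of the pathway, Ifng, was at 0.49, 0.26 and 0.34 in WGD+ and 4.29, 2.59 and 1.20 in WGD- tumours, which stands for 2 to 4 and 12 to 224 reads. The groups did not overlap, although the difference of -2.33 missed the threshold (limma adjusted p = 0.0906). Ifng and Irf1 were named after their values were seen. Irf1, a transcription factor induced by interferon-gamma, averaged 6.15 ± 0.83 in WGD+ tumours against 7.82 ± 0.50 in WGD- tumours (mean ± SD of 3 libraries), with a difference of -1.68 that was not called (limma adjusted p = 0.086).

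Of the 17 interferon-gamma response genes tested, all 17 had a negative difference, with a median of -2.38. All 17 had groups that did not overlap, against 13.8% of all genes in that direction. Of these, 7 of 17 were called, among them Cxcl9, Gbp4, Gbp5, Nos2, Gbp3 and Ciita, against 0.401% of all genes called in that direction. Cxcl9, a chemokine that draws activated T cells (chromosome 5, 92321347 to 92328079, minus strand), had the largest fall of the called genes. It was at 4.07, 3.95 and 1.46 in WGD+ and 8.02, 7.23 and 6.03 in WGD- tumours. WGD+ replicate 3 was the lowest library, and the highest WGD+ value lay below the lowest WGD- value. The difference was -3.93 (SE 0.65, limma adjusted p = 0.0413). In the fit of the 6 libraries alone, Cxcl9 had an adjusted p of 0.0771.

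Nos2, the inducible nitric oxide synthase, was at 3.13, 3.49 and 2.82 in WGD+ and 6.38, 5.96 and 5.68 in WGD- tumours (-2.86, SE 0.48, limma adjusted p = 0.0413). Here the libraries of each group lay close together, and WGD+ replicate 3 was near the other WGD+ libraries. Acod1, the enzyme that makes itaconate in activated macrophages, was at 2.46, 2.44 and 0.98 in WGD+ and 5.86, 6.15 and 4.35 in WGD- tumours (-3.49, SE 0.49, limma adjusted p = 0.0252). Ubd, an interferon-induced protein modifier of the ubiquitin family, and Ifi47, an immunity-related GTPase, fell by 3.27 and 3.54. Cd274, which encodes PD-L1, was at 3.51, 3.45 and 1.04 in WGD+ and 6.28, 5.92 and 4.78 in WGD- tumours, groups that did not overlap, with a difference of -2.99 that missed the threshold (limma adjusted p = 0.0767).

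**Figure D2:**
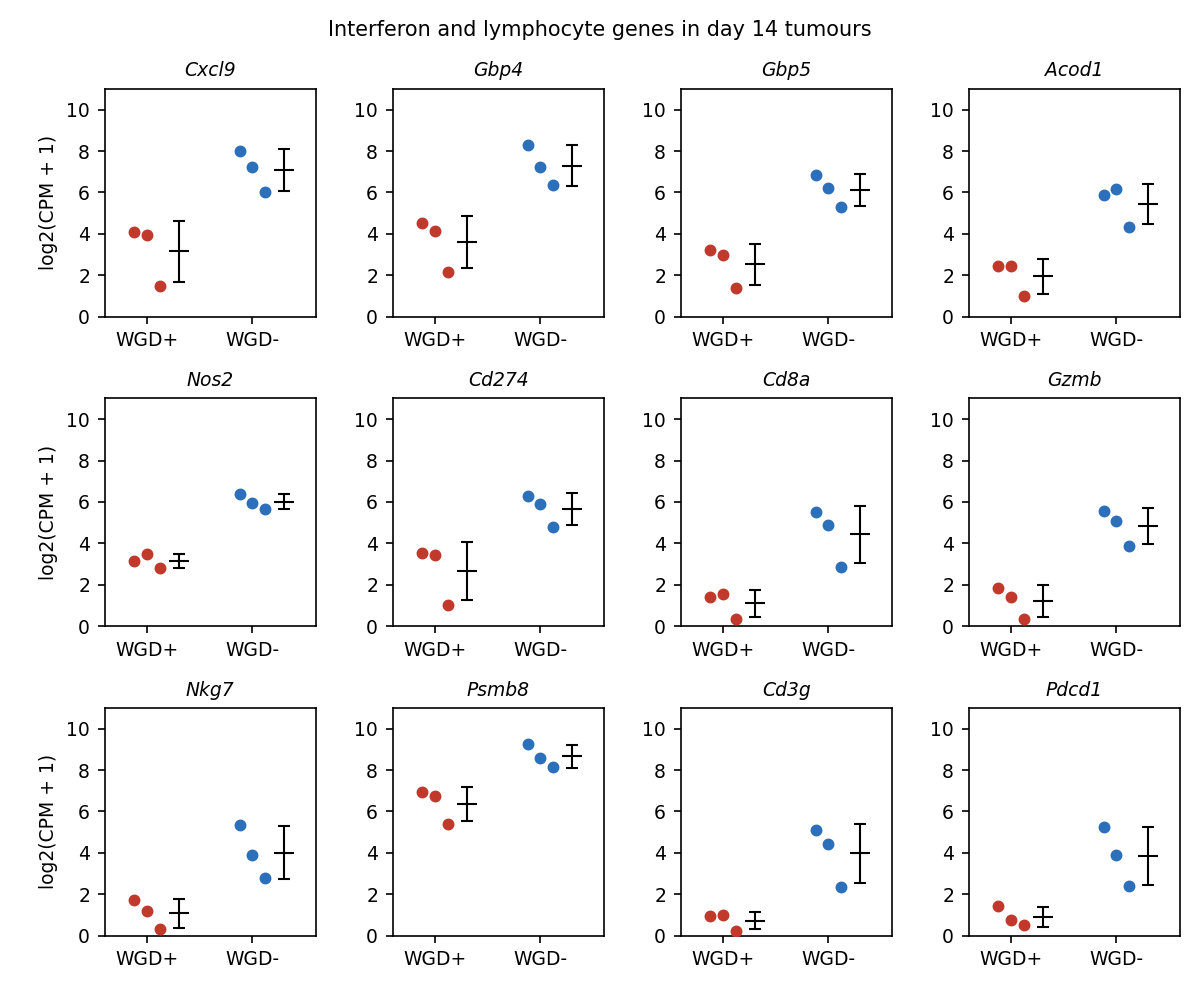
Level in log2(CPM + 1) of 12 interferon and lymphocyte genes in each day 14 library (points), WGD+ left and WGD- right, with the mean and SD of 3 libraries beside them. In each panel all WGD+ points lie below all WGD- points, for example Gbp5 at 3.20, 3.0 and 1.37 in WGD+ and 6.87, 6.20 and 5.29 in WGD- tumours.

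Guanylate-binding proteins, interferon-induced GTPases of host defence, were lower as a family. Members on the interferon-gamma list were counted there already, and the family was not itself one of the lists. Of 10 Gbp genes tested, all 10 had groups that did not overlap, against 13.8% of all genes in that direction. Limma called 7 of them lower, against 0.401% of all genes. The Gbp genes lie in 2 clusters in mm10. On chromosome 3, from 142493978 to 142638008, 3 of 5 were called, and on chromosome 5, from 105014150 to 105293698, 4 of 5. On chromosome 3, Gbp5 was at 3.20, 3.0 and 1.37 in WGD+ and 6.87, 6.20 and 5.29 in WGD- tumours (-3.60, SE 0.51, limma adjusted p = 0.0252). Gbp7 and Gbp3 fell by 2.76 and 2.48, and Gbp2b, in the same cluster, had a difference of -3.37 that was not called (limma adjusted p = 0.0562). On chromosome 5, Gbp4 was at 4.51, 4.15 and 2.18 in WGD+ and 8.31, 7.24 and 6.36 in WGD- tumours (-3.69, SE 0.61, limma adjusted p = 0.0413). Gbp10, Gbp6 and Gbp9 fell by 3.46, 3.37 and 2.84. The members Gbp3, Gbp7 and Gbp9 and the neighbours Mir6381, Olfr56 and Tgtp2 were named after their values were seen. The family is made of close copies, and Gbp4 and Gbp9 overlap on the same strand, so reads may have been split between members. On chromosome 11 the annotated span of Olfr56 contains Ifi47 on the same strand and Tgtp2 on the opposite strand, the strand setting of the counting is not given in the sources used here, and Olfr56 had at most 4 reads in a WGD+ library. Mir6381, annotated beside the chromosome 3 cluster, fell by 2.46, and in these mRNA libraries it stands for reads at that position and not for a mature microRNA.

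The promoters of 3 of these genes and of Cxcl9 are shown because interferons act on promoters through short motifs, and the called genes differ in whether those letters are present. The sequences are the 250 bases before the RefSeq start, on the gene's strand, build GRCm38.p6. Capitals mark 2 motifs searched on both strands, the interferon-stimulated response element (ISRE) as GAAA, any 2 bases and GAAA, or on the other strand TTTC, any 2 bases and TTTC, and the gamma-activated site (GAS), as TTCNNNGAA, which is its own reverse complement. In the 4 sequences no match of one motif overlapped a match of the other.
Gbp5 (chr3:142496684-142496933, plus strand): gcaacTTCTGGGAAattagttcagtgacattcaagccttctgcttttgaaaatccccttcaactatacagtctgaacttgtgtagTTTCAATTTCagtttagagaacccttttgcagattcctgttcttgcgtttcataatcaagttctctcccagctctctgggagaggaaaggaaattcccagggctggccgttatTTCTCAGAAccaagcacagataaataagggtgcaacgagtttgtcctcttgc
Gbp7 (chr3:142530086-142530335, plus strand): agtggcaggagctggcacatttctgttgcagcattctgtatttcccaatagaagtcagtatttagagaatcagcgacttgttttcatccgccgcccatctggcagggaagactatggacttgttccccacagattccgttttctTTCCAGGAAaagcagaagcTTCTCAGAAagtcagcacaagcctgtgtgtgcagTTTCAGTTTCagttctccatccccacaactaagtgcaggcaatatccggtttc
Tgtp2 (chr11:49064213-49064462, minus strand): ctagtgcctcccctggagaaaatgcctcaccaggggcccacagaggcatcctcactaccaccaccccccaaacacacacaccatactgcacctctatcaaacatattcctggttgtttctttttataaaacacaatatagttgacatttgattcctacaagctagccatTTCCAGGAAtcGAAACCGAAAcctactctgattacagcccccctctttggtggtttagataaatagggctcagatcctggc
Cxcl9 (chr5:92328080-92328329, minus strand): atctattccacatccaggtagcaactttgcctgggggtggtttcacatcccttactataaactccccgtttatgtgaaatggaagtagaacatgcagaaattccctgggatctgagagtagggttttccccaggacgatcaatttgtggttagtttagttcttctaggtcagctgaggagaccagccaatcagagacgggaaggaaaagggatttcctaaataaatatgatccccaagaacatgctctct
Gbp5 and Gbp7 each held 1 ISRE match and 2 GAS matches, Tgtp2 held 1 of each, and Cxcl9 held neither in this window. Tgtp2, a GTPase induced in T cells, was at 2.38, 1.83 and 0.43 in WGD+ and 5.39, 4.82 and 4.10 in WGD- tumours (-3.22, limma adjusted p = 0.0254). Of the 54 genes called lower, 36 matched a RefSeq promoter, and 6 of these (16.7%) held an ISRE match, 9 (25%) a GAS match and 4 (11.1%) both. The 4 with both were Gbp5, Gbp7 and Tgtp2, which are shown above, and Gm12250, named after its values were seen. Gbp3 was among the 6 with an ISRE match. Gbp genes are close copies, so these shares do not count independent genes. Over the 10541 genes tested at day 14 that matched a promoter the shares were 3.31%, 7.13% and 0.379%. Over the 27025 genes of the promoter table, tested or not, they were 3.46%, 8.13% and 0.4%. Of 11 interferon-gamma response genes with a promoter, 8 (72.7%) held an ISRE match. None of the 6 genes called higher held either motif. A match describes letters only and was not tested as a binding site.

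Antigen presentation genes showed the same direction with fewer calls. All 14 MHC class I pathway genes tested had a negative difference (median -1.48). In 12 the groups did not overlap, against 13.8% of all genes in that direction. Limma called 1, against 0.401% of all genes, with 5 without the 3 day 8 libraries in doubt. Psmb8, an immunoproteasome subunit that shapes peptides for class I presentation, was at 6.95, 6.74 and 5.40 in WGD+ and 9.26, 8.57 and 8.14 in WGD- tumours (-2.30, SE 0.42, limma adjusted p = 0.0442). B2m, the class I light chain, was at 9.62, 9.64 and 8.31 in WGD+ and 11.49, 10.68 and 11.04 in WGD- tumours, a difference of -1.88 that was not called (limma adjusted p = 0.094). Of 7 class II genes tested, all had a negative difference (median -2.39) and limma called 0, with 7 at an unadjusted p under 0.05 and 0 called by voom. H2-DMa and H2-DMb1, which load peptide onto class II, had differences of -1.82 and -2.12 (limma adjusted p = 0.111 and 0.123). Ciita, the master activator of class II genes, was called and averaged 1.88 ± 0.34 in WGD+ tumours against 4.27 ± 0.96 in WGD- tumours (mean ± SD of 3 libraries). The class II genes H2-Aa and Cd74 were not called. H2-Aa was at 6.37, 5.82 and 2.96 in WGD+ and 8.89, 8.01 and 6.04 in WGD- tumours, and its groups overlapped.

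Of 22 type I interferon response genes tested, all had a negative difference (median -1.53). In 21 the groups did not overlap, against 13.8% of all genes in that direction. Limma called 1, against 0.401% of all genes. There were 8 called in the fit of the 6 libraries and 8 without the 3 day 8 libraries in doubt. Ifi44, an interferon-induced antiviral gene, was at 4.27, 4.20 and 3.29 in WGD+ and 6.23, 6.09 and 6.11 in WGD- tumours (-2.22, SE 0.38, limma adjusted p = 0.0413). Its WGD- libraries lay close together, and the groups did not overlap. Among 10 genes of cytosolic DNA and RNA sensing, 9 had a negative difference, limma called 0 and 5 were at an unadjusted p under 0.05. Without the 3 day 8 libraries in doubt 1 was called lower. The largest difference was that of Zbp1, a sensor of Z-form nucleic acids, at 5.08, 4.52 and 2.84 in WGD+ and 6.82, 6.41 and 6.14 in WGD- tumours (-2.31, limma adjusted p = 0.0814), groups that did not overlap.

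Genes of innate immunity and inflammation followed in part. Casp1 and Casp12, inflammatory caspases encoded close together on chromosome 9, fell by 1.26 and 1.31 (limma adjusted p = 0.0413 and 0.0413), and Nod2, a sensor of bacterial cell wall, fell by 1.44. These 3 genes, and Il24, Mcpt2, Gpr137b, B2m, H2-Aa, Cd74, Ciita, Dynap, Xdh and Stra6, were named after their values were seen. All 21 inflammatory cytokines and chemokines tested had a difference below 0 (median -1.18). In 8 the groups did not overlap, against 13.8% of all genes in that direction. Limma called 0, with 11 at an unadjusted p under 0.05. The fit of the 6 libraries called 1 lower, and 3 were called lower without the 3 day 8 libraries in doubt. Il1a and Il1rn, an interleukin 1 and the antagonist of its receptor, had differences of -1.44 and -3.16 (limma adjusted p = 0.0664 and 0.0664). Il24, a cytokine of the interleukin 10 family, lay outside this list and was at 2.19, 2.05 and 0.98 in WGD+ and 4.18, 3.64 and 4.29 in WGD- tumours (-2.30, limma adjusted p = 0.0413). All 8 complement genes had a negative difference (median -1.52) with 0 called and 5 at an unadjusted p under 0.05, among them Serping1, the inhibitor of the first complement proteases, at 2.70, 2.81 and 2.28 in WGD+ and 5.44, 5.18 and 4.01 in WGD- tumours. In the complement list 2 were called lower in the fit of the 6 libraries and 2 without the 3 day 8 libraries in doubt.

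Macrophage genes did not separate the groups as clearly. Of 15 tested, 12 had a negative difference (median -1.12). In 1 the groups did not overlap, against 13.8% of all genes in that direction. Limma called 0, with 5 at an unadjusted p under 0.05. The list summed to 274 to 536 CPM in WGD+ and 245 to 1256 CPM in WGD- tumours. Cd68, a lysosomal protein of macrophages, was at 4.46, 3.87 and 3.66 in WGD+ and 6.13, 6.44 and 4.44 in WGD- tumours (-1.68, limma adjusted p = 0.21). Mast cell marker sums did not overlap, at 2.37 to 5.11 CPM in WGD+ and 7.28 to 18 CPM in WGD- tumours. Of 5 mast cell markers tested, 4 had a negative difference (median -1.07). In 2 the groups did not overlap, against 13.8% of all genes in that direction. Limma called 0 of them, with 1 at an unadjusted p under 0.05. Mcpt2, a mast cell protease outside that list, was at 0.39, 0.14 and 0.12 in WGD+ and 2.60, 2.24 and 2.16 in WGD- tumours and fell by 2.12 (limma adjusted p = 0.0252). It was represented by 1 to 3 reads in WGD+ libraries and 29 to 61 in WGD- libraries. Limma called 0 of 14 fibroblast and matrix genes, 0 of 10 endothelial genes and 0 of 9 neutrophil genes. At an unadjusted p under 0.05 there were 0, 1 and 1, against 2232 of all 13478 genes in either direction. Without the 3 day 8 libraries in doubt 1 neutrophil gene was called lower.

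The 6 genes called higher in WGD+ tumours did not belong to the lists. A530065N20Rik, a transcript known only by a clone name and named here after its values were seen (chromosome 13, 60029711 to 60116669, plus strand), was at 4.98, 4.71 and 4.84 in WGD+ and 0.80, 0.60 and 0.28 in WGD- tumours. The groups did not overlap, with 255 to 314 reads in WGD+ and 2 to 9 reads in WGD- libraries, and the difference was 4.28 (SE 0.73, limma adjusted p = 0.0413). Cirbp, a cold-inducible RNA-binding protein, was at 6.25, 6.21 and 7.21 in WGD+ and 4.99, 5.03 and 4.77 in WGD- tumours (1.63, limma adjusted p = 0.0413), with WGD+ replicate 3 the highest library. Cyp1b1, a cytochrome P450 of hormone and xenobiotic metabolism, rose by 1.31, and Lockd, a long noncoding RNA beside Cdkn1b, rose by 1.25. Lix1l was at 5.93, 6.04 and 6.16 in WGD+ and 5.22, 5.32 and 5.33 in WGD- tumours (0.75, limma adjusted p = 0.0413), and Arrdc4, an arrestin family gene of glucose metabolism, rose by 0.91.

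Slc7a11, Mfge8 and Lpar3, which earlier results of this series named, and Itga7, named after its values were seen, separated the day 14 libraries without passing the test. Slc7a11, the cystine and glutamate exchanger, was at 6.01, 5.97 and 5.93 in WGD+ and 4.34, 4.43 and 4.63 in WGD- tumours. The libraries of each group lay close together and the groups did not overlap. The adjusted p of the difference of 1.5 was 0.246 in the limma fit of 12 libraries and 0.0068 in that of the 6 day 14 libraries. At day 8, whose libraries enter the spread of the 12-library fit, Slc7a11 was at 6.29, 6.22 and 5.02 in WGD+ and 4.07, 5.19 and 7.06 in WGD- libraries. The highest of these was the library labelled WGD- replicate 3, which scored as WGD+. Without the 3 day 8 libraries in doubt the adjusted p was 0.00199.

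Mfge8, a secreted protein that bridges dying cells to phagocytes, was at 9.34, 9.41 and 9.52 in WGD+ and 7.51, 7.09 and 7.97 in WGD- tumours (1.90, limma adjusted p = 0.165, and 0.00532 without those libraries). Lpar3, a receptor for lysophosphatidic acid, was at 0.78, 1.19 and 0.53 in WGD+ and 3.57, 3.74 and 3.77 in WGD- tumours (-2.86, limma adjusted p = 0.0751, and 0.00784 without them). Itga7, an integrin chain that binds laminin, was at 4.05, 4.19 and 3.71 in WGD+ and 6.62, 6.13 and 6.84 in WGD- tumours (-2.55, limma adjusted p = 0.0881, and 0.00199 without them). The day 14 groups did not overlap for any of these genes. Crabp2, a carrier of retinoic acid, overlapped, at 2.66, 3.03 and 4.56 in WGD+ and 5.60, 5.04 and 4.44 in WGD- tumours. Stra6 of the same retinoid pathway had a difference of 1.32 (limma adjusted p = 0.263).

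**Figure D3:**
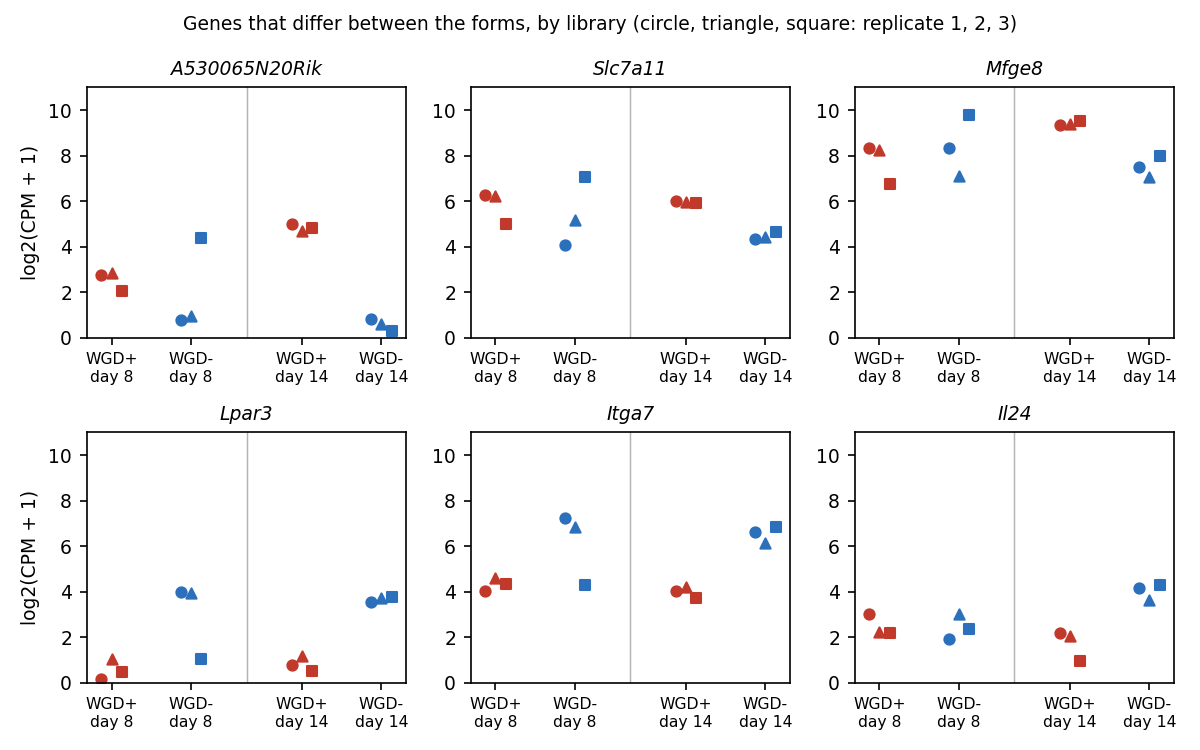
Level in log2(CPM + 1) of 6 genes in the 12 libraries of the experiment, day 8 left and day 14 right, with WGD+ in red left of WGD- in blue and a marker shape per replicate number. At day 14 the groups are apart in each panel, while at day 8 the library labelled WGD- replicate 3 (square) lies with or above WGD+ for A530065N20Rik, Slc7a11 and Mfge8.

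Division genes differed little in size. Of 15 G2/M genes tested, 14 had a positive difference (median 0.27). In 5 the groups did not overlap with WGD+ higher, against 13.3% of all genes. Limma called 0, with 3 at an unadjusted p under 0.05, against 2232 of all 13478 genes in either direction. Without the 3 day 8 libraries in doubt 1 was called higher. Birc5, which encodes survivin, was at 7.56, 7.34 and 7.32 in WGD+ and 7.08, 6.77 and 6.52 in WGD- tumours (0.61, SE 0.20, limma adjusted p = 0.178), and Cdc20, an activator of the anaphase ubiquitin ligase, had a difference of 0.53 (limma adjusted p = 0.195). Pttg1, the securin that holds back chromatid separation, was at 6.99, 6.82 and 6.97 in WGD+ and 6.19, 6.08 and 6.25 in WGD- tumours (0.75, limma adjusted p = 0.2, and 0.0315 in the fit of the 6 libraries). Kifc1, a motor that clusters supernumerary centrosomes, had a difference of 0.60 (limma adjusted p = 0.232). Of 12 spindle checkpoint and segregation genes tested, 8 had a positive and 4 a negative difference (median 0.11). Of 9 centrosome genes tested, 6 had a positive and 3 a negative difference (median 0.11). Limma called 0 of both lists, and 1 of each without the 3 day 8 libraries in doubt. Bub1, Kif18a and Cep152 did not overlap with WGD+ lower (-0.53, -0.54 and -0.37). They were named after their values were seen. Pcna, the clamp of DNA polymerases, had a difference of -0.62 (limma adjusted p = 0.132), while the 16 replication genes had a median of 0.03.

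Limma called 0 of 16 p53 target genes (median -0.12, 1 at an unadjusted p under 0.05), and Trp53 itself averaged 6.39 ± 0.20 in WGD+ tumours against 6.56 ± 0.10 in WGD- tumours (mean ± SD of 3 libraries). Ccnd2, a D-type cyclin, was at 7.08, 6.69 and 6.01 in WGD+ and 6.63, 6.51 and 6.42 in WGD- tumours, overlapping groups with a difference of 0.08. Among 13 hypoxia and glycolysis genes, 11 had a negative difference and limma called 0, with 3 at an unadjusted p under 0.05. The fit of the 6 libraries called 2 lower, and 3 were called lower without the 3 day 8 libraries in doubt. Hk2, the hexokinase that commits glucose to glycolysis, was at 7.75, 7.64 and 7.67 in WGD+ and 8.75, 8.43 and 8.93 in WGD- tumours (-1.02, limma adjusted p = 0.0664, and 0.0304 in the fit of the 6 libraries). The 11 antioxidant genes had a median of -0.10 with 0 called and 5 at an unadjusted p under 0.05. The fit of the 6 libraries called 1 of them higher, and 2 were called higher without the 3 day 8 libraries in doubt. Gpx4, which removes lipid peroxides, had a difference of 0.67, and Gclm, a subunit of glutathione synthesis, had one of -0.58 (limma adjusted p = 0.174 and 0.15). Krt5, a basal keratin, was at 7.12, 7.68 and 8.34 in WGD+ and 9.52, 9.89 and 9.48 in WGD- tumours (-1.92, limma adjusted p = 0.253, and 0.0315 in the fit of the 6 libraries).

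The difference between the forms was not the same at both times. The interaction, the WGD difference at day 14 minus that at day 8, called 461 of 13478 genes (3.42%), 214 higher (1.59%) and 247 lower (1.83%), and at day 8 alone 457 genes were called (3.39%), 64 higher (0.475%) and 393 lower (2.92%). These counts also rested on single libraries, with 28 (without WGD- replicate 2 of day 14) to 815 (without WGD- replicate 1 of day 8) calls in the interaction when 1 library was left out. Without the day 8 library labelled WGD- replicate 3 the interaction called 187 genes, without WGD+ replicate 3 of day 8 it called 191, and without the 2 that stand apart 515. At day 8 limma called 0 genes without WGD+ replicate 3 (2233 at an unadjusted p under 0.05), 10 without WGD+ replicate 1, 682 without WGD+ replicate 2, and 60, 154 and 246 without WGD- replicates 2, 1 and 3. The 6 day 8 libraries alone gave 3 calls, voom 189, no filter 50 and the replicate block 22, so the day 8 calls named here rest on the fit of 12 libraries. The interaction shares the day 14 libraries with the comparison above, so values of both are set side by side. Of the 54 genes called lower at day 14, 47 had a positive difference at day 8, against 56.3% of all genes with a negative difference at day 14.

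Gbp5 at day 8 was at 4.03, 4.44 and 3.62 in WGD+ and 1.27, 1.49 and 2.30 in WGD- tumours, by the labels the reverse order of day 14. Its difference was 2.34 at day 8 (limma adjusted p = 0.0337) and -3.60 at day 14, and the interaction was -5.94 (SE 0.72, limma adjusted p = 0.00745). Ifi44 differed by 2.58 at day 8 (limma adjusted p = 0.0196), with an interaction of -4.80 (limma adjusted p = 0.00745). Cxcl9 at day 8 was at 3.48, 3.78 and 3.53 in WGD+ and 2.22, 1.65 and 2.4 in WGD- tumours, groups that did not overlap, and its interaction was -5.44 (limma adjusted p = 0.02). The WGD- libraries of day 14 stood above all other libraries of the experiment for Cxcl9. Gzmb had the same layout, at 2.2, 2.06 and 2.18 in WGD+ and 0.27, 0.12 and 1.33 in WGD- tumours at day 8, with an interaction of -5.20 (limma adjusted p = 0.00952).

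Clec7a, a receptor of myeloid cells for fungal glucans, was at 5.26, 5.13 and 4.89 in WGD+ and 2.28, 2.98 and 2.90 in WGD- tumours at day 8 and 4.29, 3.83 and 1.51 in WGD+ and 6.37, 7.43 and 5.56 in WGD- tumours at day 14 (interaction -5.62, limma adjusted p = 0.0196). The largest interactions in the other direction that the naming rule picked were those of Scara5, a ferritin receptor (3.10), Ggt7 of the gamma-glutamyltransferase family (3.10), the extended synaptotagmin Esyt3 (3.09) and Papln, a matrix protein (2.79). Esyt3 was at 3.38, 3.35 and 2.54 in WGD+ and 4.82, 5.07 and 5.0 in WGD- tumours at day 8, and at 4.48, 5.38 and 5.87 in WGD+ and 4.25, 3.47 and 4.36 in WGD- tumours at day 14 (limma adjusted p = 0.0185). By the labels, the order of the groups thus turned between the times for this gene too. Replicate 3 of each form at day 8 scored on the side of the other form. The orders at day 8 given here rest on the labels of these libraries. By list, the interferon-gamma genes had a median difference of 1.45 at day 8 and -2.38 at day 14, and the interaction called 12 of 17 lower. Type I interferon genes had medians of 1.21 and -1.53, with 12 of 22 called lower in the interaction. All genes had a median of 0.03 at day 8.

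**Figure D4:**
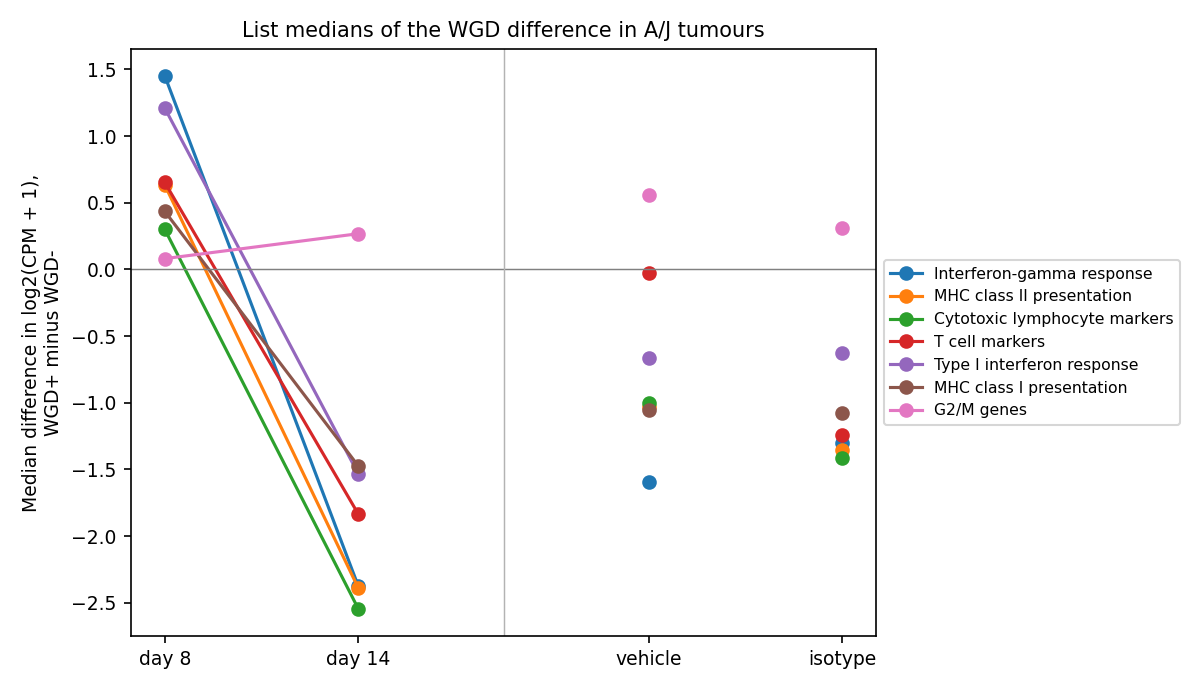
Median difference in log2(CPM + 1) between WGD+ and WGD- tumours of A/J mice for 7 lists (y axis) at day 8 and day 14 of the experiment and in the vehicle and isotype groups of the other experiments (x axis). The interferon-gamma median is 1.45 at day 8 and -2.38 at day 14, and it is -1.6 under vehicle and -1.30 under isotype.

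The same forms under vehicle or isotype gave libraries that the day 14 test did not use. Their labels give 14 days of treatment and no day of collection, so the age of these tumours may differ from day 14. The genotype field of the 3 WGD+ vehicle libraries reads WGD-, against their titles, as in 12 libraries of that experiment, and the titles were followed. Under vehicle, 58 of the 60 genes were tested, 57 had the day 14 direction, against 61.0% of all genes in both tables, and 16 were called in it, where 11.1% of all genes were called in either direction, 6.3% higher and 4.8% lower. Under isotype, 59 were tested, all 59 had the day 14 direction, against 67.8% of all genes, and 4 were called, where 1.1% of all genes were called, 0.434% higher and 0.665% lower. At day 8, 10 of 60 had the day 14 direction, against 46.4% of all genes, and 5 were called the opposite way. Across genes, differences at day 14 correlated with those under vehicle at Pearson 0.474 and Spearman 0.359 (13252 genes), under isotype at 0.674 and 0.546 (13263 genes) and at day 8 at -0.191 and -0.142 (13478 genes). Genes are not independent replicates, and each value also holds what its libraries share. By list, the interferon-gamma genes had medians of -1.6 under vehicle and -1.30 under isotype, with all 17 below 0 in both, and 3 and 1 called lower. Of the T cell markers, 5 were tested under vehicle, with a median of -0.03, 1 called higher and 1 lower, and under isotype 11 of 12 were below 0 (median -1.24). Cytotoxic markers had medians of -1.0 under vehicle (9 tested, 3 called lower) and -1.41 under isotype (11 tested). G2/M genes were above 0 in 15 of 15 under both, and 7 were called higher under vehicle.

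The 4 genes called at day 14, under vehicle and under isotype were Acod1, Gpr137b, Il24 and Nos2. Nos2 was at 4.71, 3.32 and 3.18 in WGD+ and 6.05, 6.54 and 5.98 in WGD- tumours under vehicle (-2.45, limma adjusted p = 0.0191). Under isotype it was at 3.69, 2.51 and 3.35 in WGD+ and 5.35, 6.43 and 6.75 in WGD- tumours (-2.99, limma adjusted p = 0.0303). Gpr137b, a lysosomal membrane protein, was at 5.21, 5.71 and 5.29 in WGD+ and 6.67, 6.35 and 6.27 in WGD- tumours at day 14 (-1.03), with differences of -0.94 under vehicle and -1.67 under isotype. Il24 had differences of -1.76 and -2.77 and Acod1 of -2.19 and -2.90 under vehicle and isotype. Cxcl9 was not called in either, at -2.79 under vehicle and -2.29 under isotype (limma adjusted p = 0.113 and 0.405).

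Of the genes called higher, A530065N20Rik was at 3.48, 3.93 and 4.03 in WGD+ and 0.42, 0.44 and 0.68 in WGD- tumours under vehicle (3.30, limma adjusted p = 5.22e-07). Under isotype its difference was 2.21 and was not called (limma adjusted p = 0.099). Lix1l was called under vehicle (0.77, limma adjusted p = 0.00727). Cirbp was not called in either, with differences of 0.04 under vehicle and 0.08 under isotype. Slc7a11, uncalled at day 14, differed by 2.95 under vehicle (limma adjusted p = 6.08e-07), and Lpar3 and Itga7 were called in both comparisons, by -2.37 and -1.49 under vehicle and -2.43 and -2.32 under isotype. WGD- replicates 1 and 2 under vehicle stood apart, and without them 3 of the 60 genes were called there. The numbers called in the same direction also moved with the libraries left out, from 0 to 49 under vehicle and from 0 to 20 under isotype, with 3 under isotype without WGD+ replicate 2, which scored on the side of WGD-.

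**Figure D5:**
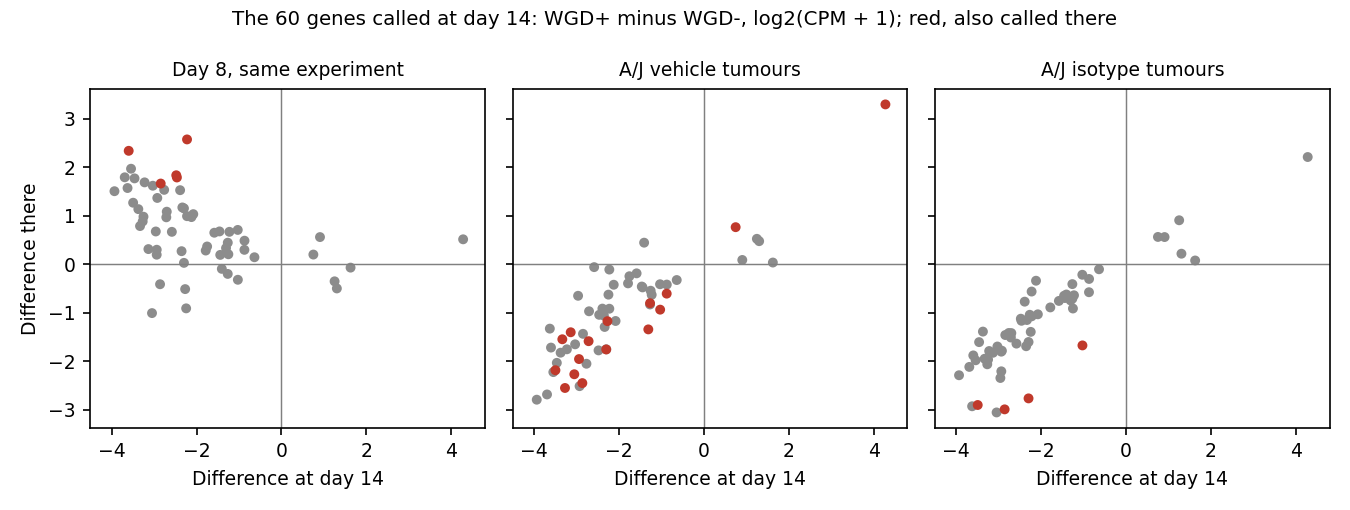
Difference in log2(CPM + 1) between WGD+ and WGD- tumours for the 60 genes called at day 14 (x axis) against the same difference at day 8, under vehicle and under isotype (y axis), with genes also called there in red. Most points lie in matching quadrants under vehicle (57 of 58) and isotype (59 of 59), and in opposite quadrants at day 8, where 10 of 60 match.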

How the data were processed

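RNA was sequenced in bulk from the tumours, with stranded mRNA libraries, per the labels' protocols. The submitters' processing notes name STAR 2.5.1b, edgeR and the build mm10. Annotation and counting tool: not given in the sources used here. The values are log2 values deposited by the authors for each gene and library, with library sizes adjusted by TMM per the name of the deposited table. Read as log2(CPM + 1), 100% of the deposited values tested gave whole reads within 0.1, which also gave the depth. In the time course, libraries held 5.25 to 12.2 M assigned reads and 1 read was worth 0.0828 to 0.185 CPM. Differences on this scale understate those of low genes, and counting error is largest there.

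The members, the 37 lists of 442 genes and the naming rule were chosen with earlier results of these data known. A gene entered the test if 3 or more libraries exceeded 1 CPM, in R 4.3.3 with limma 3.58.1 (mean-variance trend, robust empirical Bayes) in 1 fit of the 4 groups of 12 libraries, with Benjamini-Hochberg adjustment over all genes. The vehicle and isotype comparisons were fitted in their own tables. The rule named up to 10 called genes each way with groups that did not overlap and a higher group mean of at least 3, up to 4 called members of a list or up to 2 with the smallest p, up to 4 genes each way of the interaction, and Birc5, Cd274, Cd8a, Trp53, Slc7a11, Mfge8, Lpar3, Crabp2 and Ccnd2. Other genes were named after their values were seen, and some that the rule named are not reported here. A library stood apart when its best correlation was over 3 median absolute deviations below that of the experiment. The code was tested on simulated data. Of the symbols in the time course, 96.6% matched GENCODE M21, which gave coordinates, and 27 turned into dates by a spreadsheet were left out. All columns matched a sample and no libraries were identical. Replicate numbers were not treated as pairs in the main fit, since the labels do not say that they mark a shared animal, litter, batch or day. Same-numbered libraries correlated at 0.0920, 0.0966 and 0.159, and all 6 correlated best with the library of their own number. A fit with the number as a block is therefore given too. Groups came from titles, with which the genotype field disagrees in 12 libraries of the vehicle experiment. Alternatives were no filter, other pseudocounts (0.25 and 2), quantile normalization, voom, a fit of the compared groups, the block, and leaving out libraries.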

Additional observations from a re-analysis of the deposited data

Results flagged for a closer look

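The WGD difference at day 14 differed from that at day 8 for 461 genes by the limma interaction, and among the genes named here the following passed it. A negative value means a WGD difference that was more negative at day 14. Among interferon genes the interaction was -5.94 for Gbp5, -5.54 for Gbp2b, -5.52 for Ifi47, -5.49 for Gbp4, -5.44 for Cxcl9, -5.23 for Gbp10, -4.51 for Gbp6, -4.80 for Ifi44, -4.76 for Acod1, -4.19 for Cd274, -4.15 for Ubd, -3.75 for Zbp1 and -3.45 for Psmb8. Among lymphocyte and myeloid genes it was -5.20 for Gzmb, -4.23 for Cd3g, -4.12 for Cd8a, -3.24 for Nkg7, -2.55 for Il2ra, -5.62 for Clec7a, -4.95 for Il1rn, -2.08 for Il1a and -5.95 for the class II pseudogene H2-Ea-ps. It was -1.64 for Hdc, the histamine-forming enzyme, and -1.26 for Gclm. Positive interactions were 3.10 for Scara5, 3.10 for Ggt7, 3.09 for Esyt3, 2.79 for Papln, 1.80 for Cyp1b1, 1.7 for Cirbp and 1.6 for Lockd. The part that the day 8 libraries in doubt have in these values was measured only for the count, which was 515 without the 2 that stand apart. Leaving out 1 of the day 8 libraries in doubt gave 815 for WGD- replicate 1, 187 for the one labelled WGD- replicate 3 and 191 for WGD+ replicate 3.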

How the results depend on the processing

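The 60 genes called at day 14 kept their direction in every alternative in which they were tested. Their groups do not overlap, so leaving out a library could not have turned it. The counts of calls did not hold. For the day 14 comparison there were 15 calls with no filter on low values, 2 with voom (Gbp9 among them) and 181 with the 6 compared libraries alone. Leaving out the 2 day 8 libraries that stand apart gave 227 and all 3 in doubt 404, while single libraries gave 0 to 325. For the difference between day 14 and day 8 there were 235 calls with no filter and 289 with voom, and 28 to 815 without 1 library, against 461. Of the genes called at day 14, those also called under vehicle numbered 0 with no filter, 0 with voom, 3 without the 2 WGD- vehicle libraries that stand apart, 25 without the day 8 library that scored as WGD+, 55 without the 2 that stand apart, 95 without all 3, and 0 to 49 without 1 library, against 16. Under isotype they numbered 0 with no filter, 0 with voom, 10 with the compared groups alone, 8, 23 and 36 without the same day 8 libraries, and 0 to 20 without 1 library, against 4. The causes were not tested.

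With the replicate number as a block there were 35 calls at day 14 (30 of them among the 60), 231 in the difference between the times, 8 shared under vehicle and 0 under isotype. All 6 libraries correlated best with the library of their own number, as a hint from the data and not from the design. Whether the numbers mark a shared source is not given, so the calls lost under the block remain a limit. The pseudocounts of 0.25 and 2 gave 58 calls each, and quantile normalization 58, of which 10 were higher and 48 lower. Over all named genes and alternatives, 2068 results stayed on their side of the threshold, 68 passed it and 513 no longer did. Groups of 3 libraries limit the precision, as do low counts such as the 3 to 25 reads of Gzmb in WGD+ libraries. Leaving out day 8 or vehicle libraries in doubt, and the alternatives of the day 8 comparison, were chosen after seeing the data.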

Other observations

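By chromosome, genes of chromosomes 2, 5 and 14 were slightly lower in WGD+ tumours at day 14. The median difference was -0.16 over 1041 genes of chromosome 2, -0.11 over 823 genes of chromosome 5 and -0.12 over 457 genes of chromosome 14, while the other chromosomes lay between -0.08 and 0.05. Each of the 3 WGD+ libraries showed this against the WGD- mean, at -0.17, -0.15 and -0.16 for chromosome 2. The 3 WGD- libraries were at 0.01, -0.03 and 0.04 for the same chromosome. In libraries that this comparison does not use, the medians of chromosomes 2, 5 and 14 were -0.18, -0.17 and -0.17 under vehicle in A/J hosts and -0.17, -0.13 and -0.16 under vehicle in NSG hosts. Under isotype they were -0.09, -0.02 and -0.08, and at day 8, -0.03, -0.06 and 0.04. These are descriptions over genes, chosen after the values were seen, and were not tested.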
